A study of Mus musculus with 80 samples.

Results

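Bnip3, Fbxo30 and Mt1, 3 genes known for their part in muscle wasting, were followed in skeletal muscle of mice from weaning age to late life. Each is represented by 1 clone, so that 3 of the 16896 spotted cDNA clones, and 3 of the 7151 genes they name, are described. The clones are all those whose platform symbol is Bnip3 (clone 15588, filter B), Fbxo30 (clone 11813, filter B) or Mt1 (clone 6913, filter A). They were selected on earlier results of these same data, in which their scores differed between young and adult mice. Their differences between ages are therefore given with errors as a description and without a test, while differences between the sexes, which did not enter the choice, were tested.

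All 40 mice were C57BL/6, fed ad libitum, with no genetic change or drug named, and each gave total RNA that was labelled with 33P and hybridised to 1 array of each of 2 filters (mouse17K-A and mouse17K-B). They fall into 5 age classes: 17-21 d (3 females, 2 males), 33-44 d (2 females, 3 males), and 169-194 d, 476-499 d and 704-743 d (5 females and 5 males each). The deposited value is a score, the z-score of a spot within its array, so that a difference of 1 is 1 standard deviation (SD) over the clones of an array and is written array SD. The muscle that was taken is not named in the labels. A score places a clone relative to the other clones of the same array, and levels of different clones are not compared here.

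Bnip3 encodes a BH3-only protein of the mitochondrial outer membrane that binds LC3 family proteins and marks mitochondria for mitophagy. Its gene is a classic target of hypoxia-inducible factor, and in muscle it is induced by FoxO3 during atrophy. Fbxo30, also called MUSA1, is the substrate-recognising F-box subunit of an SCF ubiquitin ligase, which is held down by BMP-SMAD signalling and rises in denervated or fasted muscle. Mt1 encodes metallothionein 1, a small cysteine-rich protein that binds zinc and copper. It is induced by metals through the factor MTF-1 and by glucocorticoids, and its transcript is among those that rise in wasting muscle of many causes. Wasting is the setting in which the 3 genes are usually discussed together, while the labels of these mice name no wasting treatment and differ in age and sex.

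In the mouse genome (GRCm38.p6, RefSeq annotation), Bnip3 lies at chr7:138890836-138909506, Fbxo30 at chr10:11281330-11305750 and Mt1 at chr8:94178883-94180327. A RefSeq promoter window of 300 bases, 250 before and 50 after the start of transcription, was matched for all 3 genes by symbol. The 250 bases before the start are printed 5′ to 3′ on the gene's own strand for Bnip3 (chr7:138909507-138909756, minus strand) and Mt1 (chr8:94178839-94179088, plus strand), because hypoxia and zinc genes are described further on. Whether those genes share regulators with Bnip3 or Mt1 was not tested. Capitals mark the letters of the searched motifs.
Bnip3: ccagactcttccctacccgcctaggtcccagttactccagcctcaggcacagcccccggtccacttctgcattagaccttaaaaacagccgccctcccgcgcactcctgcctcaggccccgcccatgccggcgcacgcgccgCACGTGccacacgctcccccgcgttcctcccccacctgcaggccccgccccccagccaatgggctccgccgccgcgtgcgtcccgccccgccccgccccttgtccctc
Mt1: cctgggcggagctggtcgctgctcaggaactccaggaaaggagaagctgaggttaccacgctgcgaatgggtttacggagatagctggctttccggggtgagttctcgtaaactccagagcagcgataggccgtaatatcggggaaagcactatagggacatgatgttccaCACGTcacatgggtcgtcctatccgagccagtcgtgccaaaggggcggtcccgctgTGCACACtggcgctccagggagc
The windows take their start from a RefSeq transcript, at 94179089 for Mt1 and 11281587 for Fbxo30, both inside the gene spans given above. The printed Mt1 bases from 94178883 on, with the marked sites, and the whole Fbxo30 window therefore lie within those spans, while the Bnip3 start at 138909506 is the end of its span. The searched motifs, on both strands, were ACGTG (the core of the hypoxia response element), TGCGCNC and TGCACNC (forms of the metal response element) and GTAAACA (the forkhead core). In Bnip3, ACGTG begins 107 bases before the start and also reads on the other strand from position -108, since the site is the palindrome CACGTG. In Mt1, it reads on the minus strand from -79 to -75. ACGTG is present in 19.6% of the 32851 RefSeq promoter windows of the same length. Mt1 holds TGCACAC from -23 to -17 and, past the start, TGCACTC from 3 to 9 and TGCGCTC from 21 to 27. At least 1 metal response element occurs in 25.7% of windows, and at least 3 occur in 1.97%. The Fbxo30 window (chr10:11281337-11281586 before the start) has none of these letters. GTAAACA is in none of the 3 windows and in 3.6% of all. Of the 250 bases before the start, 72.4% are G or C in Bnip3, 80.4% in Fbxo30 and 58.8% in Mt1, against a median of 52.4% over all windows. A match is a string of letters and not a bound site.

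The number of arrays limits the precision. Of the variation among the 40 mice, a single principal component of the clones carried 43.6% on filter A and 36.6% on filter B. One male of 714 d carries on both filters a description that names another mouse, and its title, which its labelled sex and age match, was followed. Leaving out any 1 of the 40 mice, this one among them, left each member's difference between 169-194 d and 17-21 d on the same side of 0. Since that contrast entered the choice of the members, nothing is read from a sign that stays. Of the 20 skeletal muscle markers listed, 3 were measured, and their clones lay between percentiles 78.7 and 89.5 of their filters. Their mean score was 1.33 ± 0.0852 (SD, n = 5; range 1.24 to 1.46) at 17-21 d and 1.03 ± 0.2 (n = 10; range 0.797 to 1.47) at 169-194 d. It was 1.15, 0.919 and 1.15 at 33-44 d, 476-499 d and 704-743 d. Mylpf, the fast regulatory light chain, and Casq1, the calsequestrin of fast fibres, differed between 17-21 d and 169-194 d by -0.428 and -0.305. Their adjusted p was 0.011 and 0.0106 (limma with Benjamini-Hochberg adjustment). Actn3 had a difference of -0.216 (adjusted p = 0.102, limma). Over all genes, 15.6% fell in that comparison.

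Bnip3 was highest in the youngest mice. Its clone is among the dimmer of its filter, at percentile 10.29 by its mean score. The 5 mice of 17-21 d had scores of -0.89, -0.76, -0.73, -0.73 and -0.62. The 5 mice of 33-44 d had scores of -1.15, -1.12, -1.02, -1.02 and -0.92, all below the youngest class. At 169-194 d the 10 scores ran from -1.31 through a median of -1.12 to -1.04, at 476-499 d from -1.38 through -1.16 to -1.03, and at 704-743 d from -1.34 through -1.08 to -0.94. No mouse of any other class reached the lowest of 17-21 d. Class means were -0.746 ± 0.0966 (SD, n = 5), -1.05 ± 0.0915 (n = 5), -1.14 ± 0.0874 (n = 10), -1.16 ± 0.102 (n = 10) and -1.12 ± 0.151 (n = 10) in order of age. The 3 older classes differed from each other by less than the SD between mice. In bulk muscle, fewer cells of a type and less RNA per cell cannot be told apart.

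The Bnip3 difference was -0.299 ± 0.0691 array SD (SE) from 17-21 d to 33-44 d and -0.105 ± 0.0594 from 33-44 d to 169-194 d. From 17-21 d to 169-194 d it was -0.404 ± 0.0594, with all 10 adults below all 5 youngest mice. Of the clones of filter B, 1.89% had a lower value in that comparison. Bnip3 was chosen on it, so nothing is read from this rank. After 169 d the differences were small beside their errors: -0.017 ± 0.0478 from 169-194 d to 476-499 d, 0.037 ± 0.0478 from there to 704-743 d, and 0.020 ± 0.0478 over both steps. Within blocks of 8 mice by the list number in the titles, 169-194 d minus 17-21 d was -0.385, -0.23, -0.47 and -0.445 in the 4 blocks that hold a mouse of 17-21 d.

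**Figure D1:**
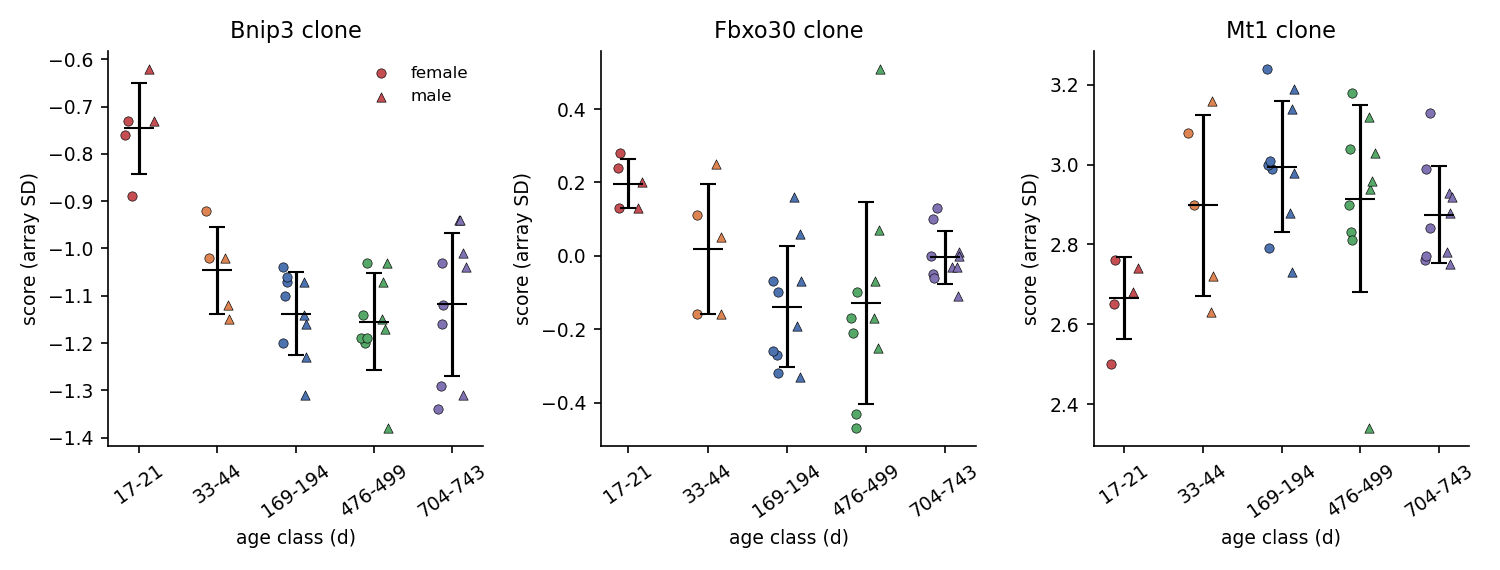
Score of the Bnip3, Fbxo30 and Mt1 clones (vertical axes, array SD) in each of 40 mice by age class in days, females as circles and males as triangles, with the class mean and SD as black bars. Bnip3 of 17-21 d, between -0.89 and -0.62, lies apart from every other mouse, while Fbxo30 and Mt1 overlap between classes.

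Fbxo30, by contrast, spread widely within the adult classes. Its 5 scores at 17-21 d were 0.13, 0.13, 0.20, 0.24 and 0.28. At 33-44 d they were -0.16, -0.16, 0.05, 0.11 and 0.25, which overlap the youngest class in 1 mouse. The older classes ran from -0.33 through a median of -0.145 to 0.16 at 169-194 d, from -0.47 through -0.17 to 0.51 at 476-499 d, and from -0.11 through -0.015 to 0.13 at 704-743 d. The class means were 0.196 ± 0.0666 (SD, n = 5), 0.018 ± 0.178 (n = 5), -0.139 ± 0.165 (n = 10), -0.129 ± 0.276 (n = 10) and -0.004 ± 0.0721 (n = 10). The oldest class was the least spread of the 3 older ones, and its mean lay between those of 33-44 d and 476-499 d. From 17-21 d to 33-44 d the Fbxo30 difference was -0.180 ± 0.104 array SD (SE), from 33-44 d to 169-194 d -0.150 ± 0.0896, and from 17-21 d to 169-194 d -0.330 ± 0.0896, where 9 of 10 adults lay below all youngest mice. It was 0.010 ± 0.0722 from 169-194 d to 476-499 d and 0.125 ± 0.0722 from 476-499 d to 704-743 d. From 169-194 d to 704-743 d it was 0.135 ± 0.0722, with all 10 oldest mice above the mean of 169-194 d. Within blocks by list number, 169-194 d minus 17-21 d was -0.185, -0.3, -0.48 and -0.395.

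Mt1 was the member that was higher in adults. At 17-21 d its scores were 2.5, 2.65, 2.68, 2.74 and 2.76. At 33-44 d they were 2.63, 2.72, 2.9, 3.08 and 3.16, with 2 mice inside the range of the youngest class and 3 above it. The older classes ran from 2.73 through a median of 2.995 to 3.24 at 169-194 d, from 2.34 through 2.95 to 3.18 at 476-499 d, and from 2.75 through 2.86 to 3.13 at 704-743 d. Class means were 2.67 ± 0.103 (SD, n = 5), 2.90 ± 0.227 (n = 5), 2.995 ± 0.165 (n = 10), 2.92 ± 0.234 (n = 10) and 2.88 ± 0.122 (n = 10). The Mt1 clone is among the brightest of its filter, at percentile 99.74 by its mean score. Its difference was 0.240 ± 0.118 array SD (SE) from 17-21 d to 33-44 d, 0.0817 ± 0.101 from 33-44 d to 169-194 d and 0.322 ± 0.101 from 17-21 d to 169-194 d, where 9 of 10 adults lay above all youngest mice. After 169 d it was -0.080 ± 0.0814 to 476-499 d, -0.040 ± 0.0814 from there to 704-743 d, and -0.120 ± 0.0814 over both. Within blocks by list number, 169-194 d minus 17-21 d was 0.21, 0.44, 0.38 and 0.45. The size depended on the scaling of the arrays: with quantile normalization, which ties the top of each array to a shared distribution, it was 0.0771, and with median and MAD scaling it was 0.529.

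The background of these comparisons was uneven. From 17-21 d to 169-194 d, 6199 of 16896 clones, 36.7%, passed an adjusted p of 0.05 (limma, Benjamini-Hochberg over both filters), and so did all 3 members. Since that contrast entered the choice of the members, nothing is read from their count. From 17-21 d to 33-44 d 4 clones passed (0.0237%), and from 33-44 d to 169-194 d 1 clone (0.00592%), no member in either. The 3 contrasts among the classes from 169 d called 0 clones (0% each) by limma, with 127, 1410 and 858 clones at an unadjusted p under 0.05 from 169-194 d to 476-499 d, from 476-499 d to 704-743 d and from 169-194 d to 704-743 d. In 862 clones (5.1%) the mice of 17-21 d and 169-194 d did not overlap, Bnip3 among them and Fbxo30 and Mt1 not. In 36 clones (0.213%), 21 lower and 15 higher in older mice, the 17-21 d mice lay apart from all 30 mice from 169 d, and Bnip3 is 1 of the 21.

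Sex was tested on all 3 clones, and no difference passed. Over all classes, female minus male was -0.00673 ± 0.0362 array SD (SE; 95% interval -0.0807 to 0.0672) for Bnip3, with an adjusted p of 0.968 in limma. For Fbxo30 it was -0.0776 ± 0.0547 (-0.189 to 0.0340; adjusted p = 0.823), and for Mt1 0.0444 ± 0.0617 (-0.0815 to 0.170; adjusted p = 0.853). These intervals leave room for sex differences of the size of the smaller age differences. The change from 17-21 d to 169-194 d in Bnip3 was -0.301 in females and -0.507 in males, a difference of 0.206 ± 0.119 (-0.0363 to 0.449). The same contrast of the sexes was -0.182 ± 0.179 (-0.548 to 0.184) for Fbxo30 and 0.0953 ± 0.202 (-0.318 to 0.508) for Mt1, and the adjusted p of limma was 1 for all 3 clones. From 169-194 d to 704-743 d the Bnip3 values were -0.094 in females and 0.134 in males, a difference of -0.228 ± 0.0957 (-0.423 to -0.0326), with an unadjusted p of 0.0228 and an adjusted p of 0.999 in limma. At 704-743 d 4 of 5 males had Bnip3 scores of -1.04 or higher, and the other, of 719 d, had -1.31, while 4 of 5 females had -1.12 or lower. Fbxo30 gave 0.186 ± 0.144 (-0.109 to 0.481) and Mt1 0.0240 ± 0.163 (-0.309 to 0.357) for that contrast, each with an adjusted p of 0.999. All 3 sex contrasts called 0 of 16896 clones (0% each) in limma, with 454, 188 and 209 clones at an unadjusted p under 0.05 in the order given.

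The 3 clones did not move as a unit across mice. Fbxo30 and Mt1 ran opposite to each other, with Pearson r of -0.81 and Spearman rho of -0.783 over the 40 mice and -0.783 and -0.67 over the 30 mice from 169 d. They lie on different filters, so these are separate hybridisations of the same RNA. The relation of Bnip3 was weak with Fbxo30 (r = 0.229, rho = 0.267) and with Mt1 (r = -0.176, rho = -0.199). From 169 d, r was -0.188 for Bnip3 with Fbxo30 and 0.188 for Bnip3 with Mt1. These correlations are descriptions over mice that share age classes and array scaling, among 9 relations computed.

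Fbxo30 and Mt1 followed the leading component of the arrays. Because a clone contributes to the component of its own filter, each was set against that of the other filter. Fbxo30 had r = -0.931 (rho = -0.903) with the component of filter A over 40 mice and -0.938 from 169 d. Of the clones on filter B, 2.25% had a larger absolute r, against a median of 0.541. Mt1 had r = 0.829 (rho = 0.802) with the component of filter B and 0.804 from 169 d. On filter A 17.8% of the clones had a larger absolute r, against a median of 0.594. Bnip3 had r = -0.328 (rho = -0.344), with 73% of its filter above it. When the component of the other filter was added as a covariate, the difference between 169-194 d and 17-21 d was -0.0329 ± 0.0528 (SE) for Fbxo30, -0.0359 ± 0.0683 for Mt1, below 0, and -0.437 ± 0.0695 for Bnip3. From 169-194 d to 704-743 d it was 0.0371 ± 0.0369 for Fbxo30, against 0.135 without the covariate. For Mt1 that later difference was -0.0024 ± 0.0464, against -0.120, and for Bnip3 0.0309 ± 0.0485, against 0.020. The component itself differed between these ages. On filter A it ran from -0.2223 to -0.1752 at 17-21 d and from -0.175 to 0.2585 at 169-194 d. On filter B it ran from -0.2534 to -0.1554 and from -0.1556 to 0.2324. As a covariate it therefore also takes out age differences that run with it, and the component and age cannot be told apart here. What the component stands for was not tested.

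**Figure D2:**
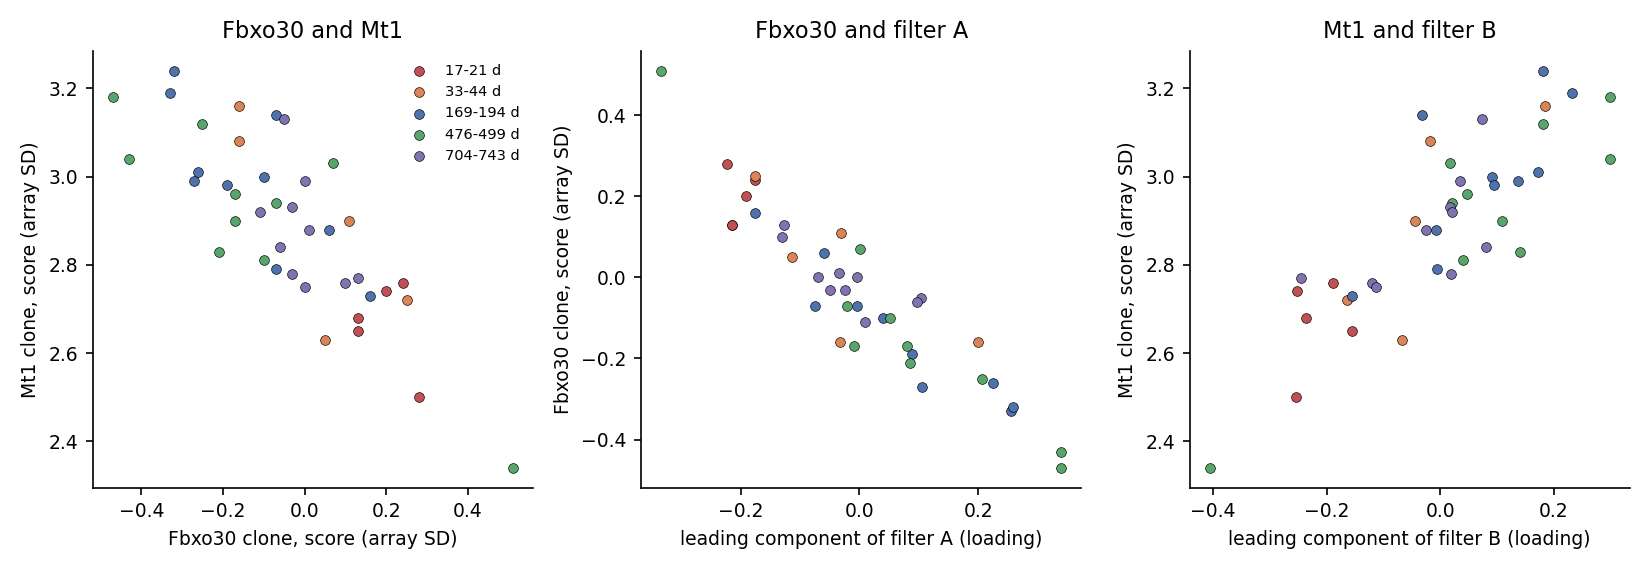
Fbxo30 against Mt1 scores (left), Fbxo30 against the leading component of filter A (middle) and Mt1 against that of filter B (right), in array SD and component loading, 1 point per mouse coloured by age class. Fbxo30 is lower where filter A's component is higher, with r = -0.931, and Mt1 is higher where filter B's is higher, with r = 0.829, and the male of 495 d lies at the far end of all 3 panels.

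By Pearson r over the 40 mice, Bnip3 was instead closest to a clone of Col1a2, the alpha-2 chain of type I collagen. The clone, 15060 on filter B, is the one nearest to Bnip3 in clone number among those named Col1a2, and it had the highest r with Bnip3 of all clones with 1 symbol (r = 0.792, rho = 0.538, 40 mice). Its scores were 0.622 ± 0.223 (SD, n = 5) at 17-21 d, 0.072 ± 0.245 (n = 5) at 33-44 d, -0.281 ± 0.121 (n = 10) at 169-194 d, -0.316 ± 0.104 (n = 10) at 476-499 d and -0.443 ± 0.103 (n = 10) at 704-743 d. Among the 10 mice of 17-44 d, Bnip3 and this clone had r = 0.976 and rho = 0.982, and among the 30 mice from 169 d r = 0.187 and rho = 0.144. Both clones fell from 17-21 d to 169-194 d, and Bnip3 was chosen on that difference. An r across age classes includes this shared step. Within groups of sex and age class, r was 0.352. The mouse with the highest Col1a2 score, 0.97, is the one with the highest Bnip3 score, -0.62.

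The place of the clones on the filter was read from the data, since no layout is used here. Group means were removed first, and then the 3 leading components of what remained. Pairs of clones were then most alike at clone-number steps of 22, 528 and 1. The mean correlations were 0.451, 0.399 and 0.391 on filter B, against a median of 0.048 over all steps examined. Clones at those steps are taken as neighbouring spots. Bnip3 and the Col1a2 clone are 528 apart, 1 such step. Around Bnip3, the other neighbours had differences from 17-21 d to 169-194 d of -0.161 (Shisa5), 0.0895 (Chfr), 0.165 (Ccz1), 0.15 (Col6a4) and 0.0562 (unnamed), against -0.931 for Col1a2. Their within-group r with Bnip3 was 0.338, 0.259, 0.412, 0.189 and 0.347 in the same order, against 0.352 for Col1a2. Around the Col1a2 spot, the 6 clones at 1 step, with Bnip3 among them, had a median difference of -0.165 and a range of -0.692 to 0.231. Bnip3 was itself chosen on this contrast. The other clones at 1 step differed by -0.692, -0.2935, -0.0368, 0.0828 and 0.231. The 18 clones at 2 steps had a median of 0.0728 and the 38 at 3 steps of 0.0962. Of the 36 clones whose youngest mice lay apart from all mice from 169 d, 4 are within 2 steps of the Col1a2 spot. These 4, out of 25 clones there, were all lower with age, and the spot itself and Bnip3 are among them.

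With the Col1a2 clone as a covariate, the Bnip3 difference from 17-21 d to 169-194 d was -0.120 ± 0.153 (SE), against -0.404 ± 0.0594 without it. The Col1a2 clone ran from 0.38 to 0.97 at 17-21 d and from -0.45 to 0.01 at 169-194 d. This covariate and the age step therefore cannot be told apart. The same covariate gave -0.664 ± 0.237 for Fbxo30. With the mean of the 6 neighbours of Bnip3 as covariate, the Bnip3 difference was -0.336 ± 0.0574. Clones of the same and related matrix genes had unlike differences. In 169-194 d against 17-21 d the brightest Col1a2 clone differed by 0.008, Col1a1 by 0.0102 and Col3a1 by -5e-04, with adjusted p of 0.919, 0.894 and 0.994 in limma. On filter A, where no spot can neighbour Bnip3, Col2a1 clone 4055 differed by -0.860 (adjusted p = 1.86e-09, limma) and Sparc clone 6518 by -0.721, and in both, as in Bnip3, the 17-21 d mice lay apart from all mice from 169 d. Sparc encodes a matrix protein, and its brightest clone differed by -0.0513 (adjusted p = 0.715, limma). The part of signal from a neighbouring spot in the Bnip3 score was not tested.

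**Figure D3:**
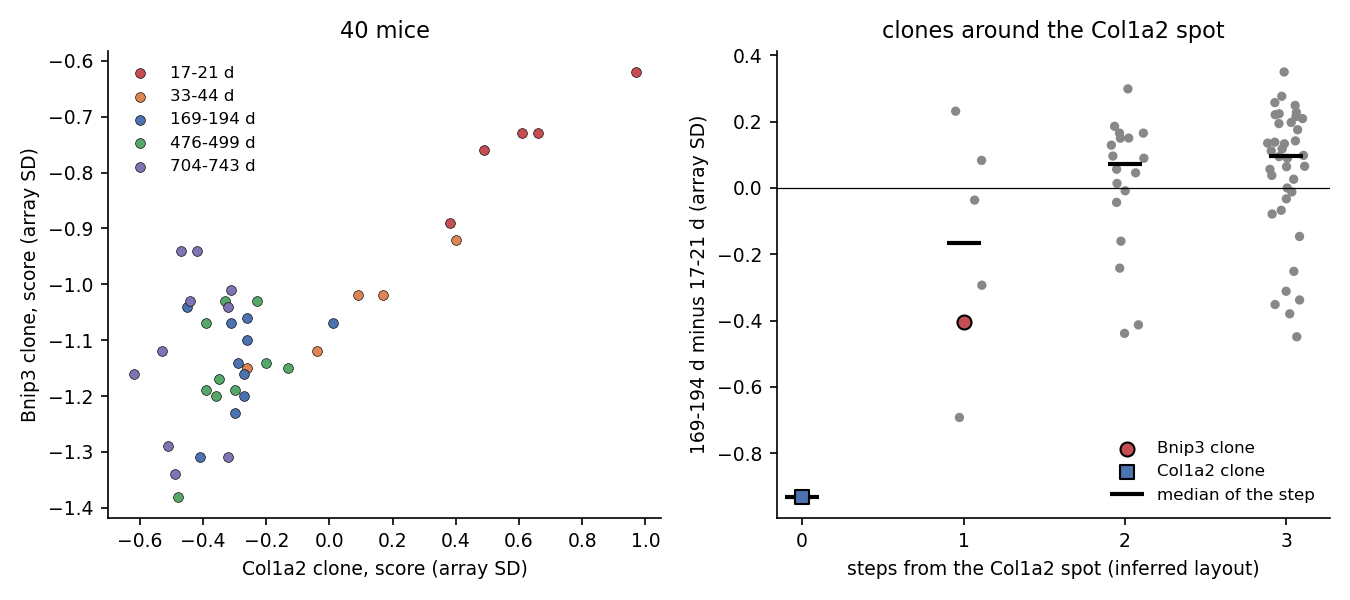
Left, Bnip3 score against the score of Col1a2 clone 15060 (both in array SD), 1 point per mouse coloured by age class. Right, difference between 169-194 d and 17-21 d (array SD) of clones at 0 to 3 inferred steps from the Col1a2 spot, with the median of each step as a bar: -0.931 at the spot, -0.404 for Bnip3 at 1 step, and medians of 0.0728 and 0.0962 at 2 and 3 steps. The bar at 1 step counts Bnip3.

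Fbxo30 and Mt1 also resembled some neighbours. Within groups, Fbxo30 correlated at 0.945, 0.977 and 0.806 with 3 of its 6 neighbouring clones, all unnamed, whose differences from 17-21 d to 169-194 d were -0.347, -0.369 and -0.39. Its other neighbours had within-group r of -0.37, -0.284 and 0.438 and differences of 0.187, 0.117 and 0.345. For Mt1, Brat1 had a within-group r of 0.912 and a difference of 0.375, Entpd5 0.731 and 0.324, and Mau2 and Vps25 had r of 0.0124 and -0.17 with differences of -0.0357 and -0.142. With the mean of the neighbours as a covariate, Fbxo30 differed by -0.280 ± 0.0690 and Mt1 by 0.202 ± 0.0835.

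The clones most like each member over 40 mice, by Pearson r, were these. Bnip3 was nearest to the Col1a2 clone and then to Clca3a1 (r = 0.758) and a Col2a1 clone of filter A (r = 0.73), and by Spearman rho to Srsf1, Mylpf and C86187 (rho = 0.66, 0.659 and 0.65). Fbxo30 was nearest to Myof (r = 0.98), Ypel1 (0.97) and Tspan31 (0.97), and Mt1 to Nxf1 (0.954), Snrpb2 (0.938) and Bsg (0.938). Nxf1 is 44 clone numbers from Mt1, which is 2 steps of 22, and Myof is 88 from Fbxo30, 4 such steps. With the leading component of each filter taken out, r was 0.76 for Bnip3 and Col1a2, 0.841 for Fbxo30 and Myof, and 0.908 for Mt1 and Nxf1.

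Relatives of the members, chosen after their values were seen, had values of their own. Bnip3l, which encodes the mitophagy receptor NIX, has 3 clones. From 17-21 d to 169-194 d they differed by 0.207, -0.0263 and 0.148 array SD, and the lowest of these lies above the Bnip3 value of -0.404. Mt2, which encodes the other widely expressed metallothionein, scored -0.844 ± 0.0673 (SD, n = 5) at 17-21 d and -0.768 ± 0.101 (n = 10) at 169-194 d, a difference of 0.0853 with an adjusted p of 0.45 in limma. Fbxo32, the F-box gene of atrogin-1, scored -0.042 ± 0.138 (n = 5) and -0.175 ± 0.172 (n = 10), a difference of -0.119 (adjusted p = 0.261, limma). The Mt1 and Mt2 coding sequences are close relatives, and cross-hybridisation between their clones was not tested.

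Genes of the members' pathways were counted in 7 lists, in 169-194 d against 17-21 d, where 20.9% of the 7151 genes rose and 15.6% fell (limma, adjusted p). Together the lists held 104 measured genes, of which 23 rose and 15 fell, 22.1% and 14.4%, close to the background. Of 13 atrophy ubiquitin ligase and SCF genes, 2 rose and 2 fell. Cul1 and Rbx1, the cullin scaffold and RING subunit with which F-box proteins such as Fbxo30 assemble, rose by 0.432 and 0.284 array SD. Usp19, a deubiquitinase, and Nedd4, a HECT ubiquitin ligase, differed by -0.294 and -0.195. Of 15 genes of BMP, activin and SMAD signalling, 3 rose and 1 fell. Acvr2b, the activin and myostatin receptor, rose by 0.251, Id3, a BMP target, by 0.236 and Smad4, the shared SMAD partner, by 0.155, while Id2, another BMP target, fell by 0.297.

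Of 27 autophagy and mitophagy genes, 4 rose and 5 fell. Among those with the smallest p, Atg14, a subunit of the class III PI3-kinase complex, differed by -0.435. The autophagy receptor Nbr1 differed by -0.232, the initiating kinase Ulk1 by -0.271 and Bcl2l1, which encodes Bcl-xL, by -0.149. Of 18 hypoxia response genes, 5 rose and 2 fell. Here Ndrg1, a hypoxia-induced gene, rose by 0.288 and Hmox1, heme oxygenase 1, by 0.341, while the carbonic anhydrases Car12 and Car9, both targets of hypoxia-inducible factor, differed by -0.273 and -0.234. Of 14 metallothionein and zinc transport genes, 4 rose and 3 fell. Slc30a7 and Slc30a9, of the Slc30 family of zinc transporters, differed by -0.248 and -0.346, and Slc39a4 and Slc39a14, of the Slc39 family, by 0.189 and 0.312. Transporters of both families passed in both directions, since Slc30a4 differed by 0.204 (adjusted p = 0.0415) and Slc39a10 by -0.152 (adjusted p = 0.0468, limma), both named after their values were seen.

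Of 16 genes of the FoxO, glucocorticoid and insulin axis, 5 rose and 2 fell. Igf1, the growth factor that restrains FoxO signalling, differed by -0.323, and Fkbp5, a glucocorticoid receptor target, Glul, glutamine synthetase, and Irs1, an insulin receptor substrate, differed by 0.198, 0.327 and 0.302. Of 17 denervation genes 1 was measured, Agrn, which encodes the synapse organiser agrin, at 0.029 and not past the threshold. In the other 5 age contrasts 0 of the list genes passed in limma. The median list difference was 0.0164 array SD for the pooled lists, against 0.043 for all genes.

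**Figure D4:**
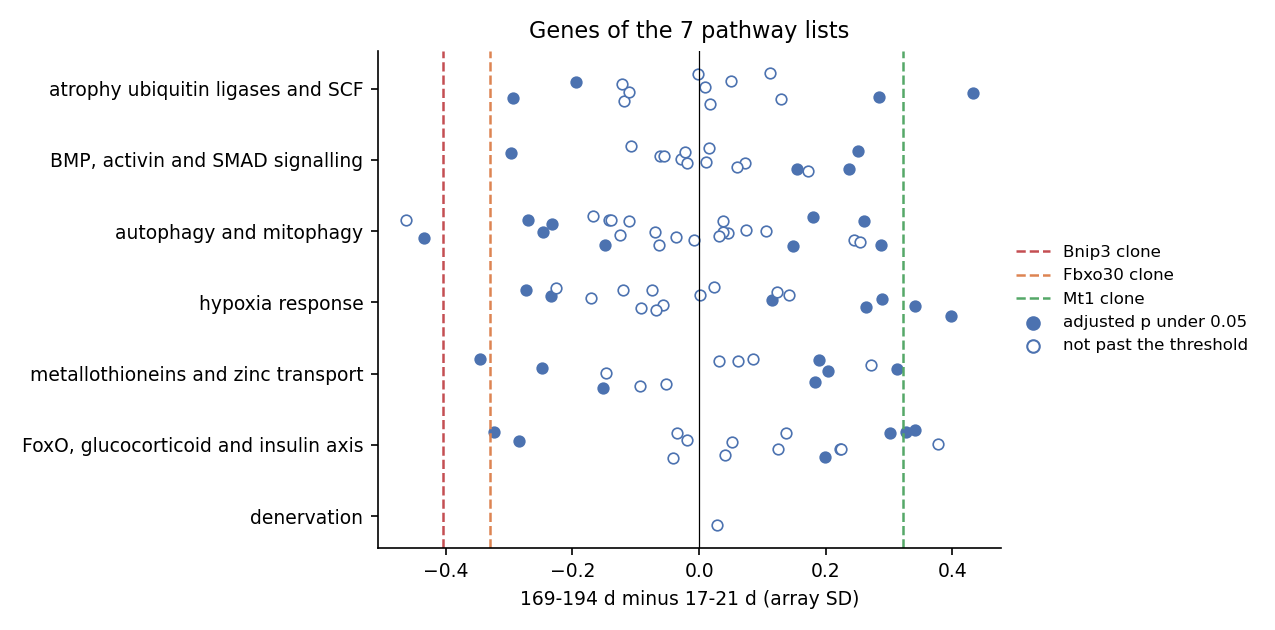
Difference between 169-194 d and 17-21 d (horizontal axis, array SD) of each measured gene of the 7 lists, filled where the adjusted p was under 0.05, with dashed lines at the Bnip3 (-0.404), Fbxo30 (-0.330) and Mt1 (0.322) clones. Filled points lie on both sides of 0 in each of the 6 lists with more than 1 measured gene.

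These counts rest on few young mice. Without male 17-21 d replicate 2, a setting that leaves a single male in the class and assumes that it varies like the other groups, 0 list genes rose and 0 fell, beside 0.042% and 0.042% of all genes. Without male 17-21 d replicate 1 it was 4 and 6, beside 6.87% and 5.01% of all genes. Without female 17-21 d replicate 2 it was 12 and 12, beside 12.2% and 9.24%, and without male 169-194 d replicate 3 it was 13 and 12, beside 13.5% and 10.6%. The counts over all genes thus moved with those of the lists. With 33-44 d in place of 17-21 d, or with the opposite filter's leading component in the model, 0 list genes rose and 0 fell in limma, where the first called 1 of 16896 clones and the second 0% of genes higher and 0.042% lower. Median and MAD scaling gave 25 and 10, and over all genes 25.9% that rose and 10.9% that fell.

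Markers of other cell types, beside these differences, were measured in part. Of 13 fibroblast, tendon and cartilage markers 8 were measured, and their mean score ranged from 0.685 to 0.826 in the mice of 17-21 d and from 0.578 to 0.679 at 169-194 d. The median difference over the 8 was -0.00483. Of the 8, 0 rose and 1 fell, that of Col2a1, the collagen of cartilage, with a difference of -0.860 array SD, while the other 7 lay between -0.0765 and 0.101. These values are of the brightest clone of each gene. Dimmer clones of Col1a2 (15060) and Sparc (6518) differed by -0.931 and -0.721, as given above. Of 11 macrophage markers 4 were measured. C1qa and C1qb rose by 0.160 and 0.175, while Lyz2 and C1qc differed by -0.301 and -0.0545 and did not pass. Of 11 erythroid and blood markers 5 were measured and 1 rose. Over all genes, 20.9% rose and 15.6% fell. Adipocyte, endothelial, nerve and skin markers had 1, 2, 2 and 2 measured genes, none past the threshold. The mean of the adipocyte list, its single gene Lpl, ran from -0.07 to 0.03 at 17-21 d and from -0.36 to 0.05 at 169-194 d. The part of cell composition in the members' differences was not tested.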

How the data were processed

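Values are scores as the authors deposited them, z-scores of mean 0 and SD 1 over the clones of each array, for 40 mice on 2 filters of 8448 clones. No log base, quantification or background step is given in the sources used here. Clones were named by the platform tables, and symbols were updated through gene identifiers to RefSeq (GRCm38.p6). For lists, a gene was its clone with the highest mean percentile in its filter. Filters were fitted separately by limma (version 3.58.1, R 4.3.3; 10 groups of sex and age class, sexes weighted equally, two-sided), and p was adjusted by Benjamini-Hochberg over both filters, threshold 0.05. The fit was run on simulated data, in which each clone's deviations from its group means were shuffled among mice separately. That removes what clones share across an array, so it does not speak to the counts of clones given here. The mice are separate animals.

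The members and the lists were chosen with earlier results of these data known. Named were every member clone, up to 4 list genes past the threshold in 169-194 d against 17-21 d by smallest p (2 where none passed), the 3 clones most like each member, and the Col1a2 clone nearest in number to Bnip3. Agrn is the only measured gene of its list. Genes outside this rule (Bnip3l, Mt2, Fbxo32, Sparc, Slc30a4, Slc39a10, neighbouring spots and cell type markers) were named after their values were seen. Alternatives were scaling, a filter on the dimmest 20% of clones, array weights, the variance prior, covariates, blocks by list number, class definitions and leaving out each mouse. Promoters are RefSeq windows.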

Additional observations from a re-analysis of the deposited data

Results flagged for a closer look

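Of 33 groups of mice and clones examined for a mouse far from the rest, 4 had such a mouse, and chance alone gives this in about 1 in 20 groups. The groups are not independent, since those of 1 sex lie within their age class and the same mouse recurs. The count is therefore not set against that share. The male of 495 d (male 476-499 d replicate 5) had the lowest Bnip3 score of its age class, -1.38, with the next at -1.2. The same mouse had the lowest Mt1 score, 2.34, both in its age class, where the next mouse had 2.81, and among the 5 males of that class, where the next had 2.94. It also had the highest Fbxo30 score of all 40 mice, 0.51. Without it, 476-499 d minus 169-194 d was 0.0105 for Bnip3, -0.0515 for Fbxo30 and -0.0128 for Mt1, against -0.017, 0.010 and -0.080 with it. The male of 719 d (male 704-743 d replicate 3) had the lowest Bnip3 score of its group, -1.31, with the next at -1.04. Without it, the sex difference in the Bnip3 change from 169-194 d to 704-743 d was -0.294, against -0.228 with it.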

How the results depend on the processing

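In 169-194 d against 17-21 d, Bnip3 stayed below 0 in every setting run: -0.559 with normal scores, -0.242 with 17-44 d as 1 class and -0.120 ± 0.153 (SE) with the Col1a2 covariate. The members were chosen on this contrast, so nothing is read from the kept sign. Fbxo30 was -0.0329 with the leading component and -0.664 with the Col1a2 covariate. The leading component and the Col1a2 clone themselves differed between these ages. Mt1 was 0.0771 with quantile normalization, 0.529 with median and MAD scaling and -0.0359 with the leading component. The filter on dim clones removed the Bnip3 clone, so that it gave no value there. Leaving out 1 mouse kept these differences between -0.431 and -0.376 for Bnip3, -0.359 and -0.298 for Fbxo30, and 0.288 and 0.353 for Mt1.

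Sex differences passed in no setting, and some changed sign. For Mt1 over all classes, female minus male was -0.00846 with quantile normalization, -0.0126 with normal scores and -0.0301 with the leading component. Its sex difference from 17-21 d to 169-194 d was -0.0162, -0.0429 and -0.0408 with quantile normalization, normal scores and the list number block, and from 169-194 d to 704-743 d -0.0761 with median and MAD scaling and between -0.0340 and 0.0875 with 1 mouse left out. For Bnip3 over all classes, leaving out 1 mouse gave -0.0198 to 0.00427.

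With array weights 35 list genes rose and 22 fell, beside 33.7% and 23.7% of all genes. Those that rose numbered 0 with the leading component, 0 with 33-44 d in place of 17-21 d, and 0 to 28 with 1 mouse left out. Those that fell numbered 0 with the leading component, 0 with 33-44 d and 0 to 17 with 1 mouse left out. All 24 named list genes kept their sign under the 3 scalings, where Bcl2l1, Slc39a4, Nedd4, Car9 and Slc30a9 no longer passed in at least 1. With the leading component none of the 24 passed, and 6 changed sign: Cul1 (-0.131), Rbx1 (-0.0809), Ulk1 (0.0461), Hmox1 (-0.0432), Car9 (0.0395) and Slc39a14 (-0.0537). That component also differed between 17-21 d and 169-194 d, and the cause was not tested. The neighbour covariate and the 33-44 d substitution were chosen after seeing the data. The labels give no replicate numbers that pair mice across groups. With blocks of 8 mice by list number, the differences between 169-194 d and 17-21 d were -0.406 for Bnip3, -0.371 for Fbxo30 and 0.377 for Mt1.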
